A study of Mus musculus with 12 samples.

Results

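Starved cells were set directly against irradiated cells: 3 -SG libraries against 3 IR libraries, 6 of the 12 libraries of the series, over every gene of the table. The cells were 4T1, a line from a mammary carcinoma of the mouse that the study describes as p53 null, in a single experiment in biological triplicate. They were kept in RPMI with serum, and the study's experimental medium was based on MEM with dialysed serum, with serine and glycine added back for the controls. The -SG cells were grown without serine and glycine and were not irradiated. The IR cells had both amino acids and received 5 Gy of X-rays, with RNA taken 24 h later. The 3 Ctr libraries (both amino acids, no radiation) and the 3 IR -SG libraries (both treatments) served to show where each gene lay without either stress and under both. By the labels the cells were placed in their medium before the irradiation, and 1 cell line in 1 experiment limits the groups as models of either stress. The comparison asks which genes each stress drives when neither is used as the reference for the other.

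Cells that run short of an amino acid carry uncharged transfer RNAs, which activate the kinase GCN2. GCN2 phosphorylates the translation factor eIF2alpha, and the transcription factor ATF4 is then translated and switches on genes for amino acid synthesis, amino acid import and the charging of transfer RNAs. Ionising radiation breaks DNA. In surviving cells it is known to engage p53 where that is functional, the NF-kB factors and, through DNA or RNA that reaches the cytosol, the sensors that lead to interferon-stimulated genes.

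Whole reads in genes ranged from 12540160 to 20066659 over the 6 libraries (median 15823468), and 14592 of 20587 genes had at least 10 normalized counts in at least 3 of the 12 libraries and were tested. Of 8 epithelial markers all 8 were tested, and their summed normalized count was 76675 to 84483 in -SG and 63721 to 64924 in IR libraries. Markers of other cells were low. No endothelial marker was tested, and of 8 leukocyte markers only Csf1r and Cd68 were, with a summed count of 47.5 to 60.9 in -SG and 134 to 148 in IR libraries. Ptprc, which defines leukocytes, lay between 0 and 6.30 in all 6 libraries, and 5 of the 8 leukocyte markers are not in the table. Of the fibroblast markers Col1a1, Col1a2 and Pdgfra were tested, with a summed count of 252 to 330.1 in -SG and 486 to 524 in IR libraries. Library -SG replicate 6 stood apart. Its counts differed from those of the other -SG libraries with a chi-square per gene of 6.84 and 10.45. Every other pair of replicates in the series had 1.53 to 3.05. The differences of -SG replicate 6 followed GC content (Spearman rho -0.35 and -0.47 across genes) and transcript length (rho 0.355 and 0.359). In the other pairs the rho with GC content ran from -0.31 (IR replicates 1 and 2) to 0.24 (IR -SG replicates 5 and 6). Their rho with length ran from -0.19 (IR replicates 2 and 3) to 0.24 (IR replicates 1 and 2). The difference between -SG and IR had hardly any rank correlation with GC content (rho -0.0039 across genes) and a weak one with length (rho -0.066). Rank correlation does not capture trends that rise and then fall. Removal of GC and length trends in each library did change the counts given below. The fitted trend also holds the library's mean deviation, so its removal can shift the zero point. With it the median difference over all tested genes went from 0.01 to 0.07. How much of the changes after this removal is such a shift was not tested.

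Starved and irradiated cells differed at about as many genes in each direction, and more of the differences past 2-fold were on the IR side. Of the 14592 tested genes 3688 (25.3%) were higher in -SG cells and 3816 (26.2%) were higher in IR cells by the limma test at an adjusted p under 0.05, and 7088 did not pass. Counts of list members below are to be read beside these shares of all tested genes. A further threshold of 2-fold left 197 genes higher in -SG and 746 higher in IR, and one of 4-fold left 33 and 178. Among genes whose higher group averaged 100 normalized counts or more, 100 and 288 passed 2-fold. The root mean square log2 difference between an -SG and an IR library was 0.61 to 0.64 across genes, against 0.27 to 0.36 between replicates. After removal of trends with GC content and gene length in each library the counts were 5099 and 3358, while scaling to the same total gave 3774 and 3749 and TMM 3642 and 3852. Without -SG replicate 6 they were 3875 and 3943, the highest of the fits with a library left out. In bulk RNA, fewer cells of a kind and less RNA per cell cannot be told apart, and values are relative to the RNA of each library.

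**Figure D1:**
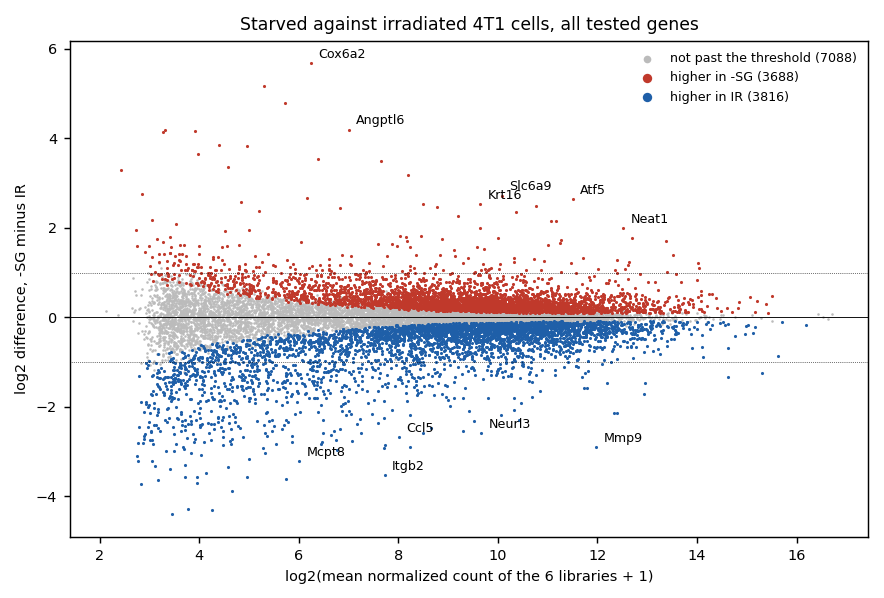
Difference between -SG and IR (y axis, log2, -SG minus IR) against the mean level of the 6 libraries (x axis, log2 of the normalized count + 1) for 14592 tested genes. Red points are the 3688 genes higher in -SG, blue points the 3816 higher in IR, grey points did not pass, and dotted lines mark 2-fold; more points lie past the lower line (746) than past the upper one (197).

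Of the 15 genes with the largest differences on the -SG side, Cox6a2 led. Cox6a2, a subunit of cytochrome oxidase known from heart and skeletal muscle, had 125, 151 and 171 normalized counts in -SG and 2.10, 2.81 and 1.08 in IR libraries (log2 difference 5.68 ± 0.31, SE, adjusted p = 7.7e-11). Angptl6, which encodes a secreted angiopoietin-like protein, had 209, 231 and 288 in -SG against 10.5, 12.2 and 14.1 in IR (4.19 ± 0.23). The other leading genes of that side were Gsta2, Dsg3, Aldh1l2, Cdsn, Slc6a9, Fut1, Atf5, Vldlr, Krt16, Niban1, Pycr1, Acot2 and Trib3. Their log2 differences ran from 4.79 down to 2.35. Lack of overlap between -SG and IR libraries was a condition for the choice of leading genes, and 7910 of the 14592 tested genes met it. At their low counts in IR libraries the pseudocount of 1 understates the differences of Cox6a2 and Gsta2.

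Itgb2 led the 15 genes of the IR side. Itgb2, the beta chain of the leukocyte integrins, had 33.3, 31.6 and 33.1 normalized counts in -SG and 387, 399 and 378 in IR libraries (-3.53 ± 0.13, adjusted p = 3.5e-13), with 102 ± 13.4 (SD, n = 3) in Ctr. The Ctr level thus lay between both stresses. Mcpt8, a mast cell and basophil protease, had 7.99, 12.5 and 14.96 in -SG and 97.7, 119.9 and 128 in IR (-3.21 ± 0.23). Csf1r, the receptor for colony-stimulating factor 1 and a leukocyte marker, moved the same way, with 7.99, 4.16 and 3.21 in -SG and 31.5, 36.5 and 28.2 in IR (-2.50 ± 0.34, adjusted p = 9.5e-06), and so did Cd68 (-1.19 ± 0.15). Whether a few cells of another kind take part in these differences was not tested. The other leading genes of the IR side were Plekhs1, Nmnat2, Plat, Mmp9, Dll4, Il1rl1, Tnfrsf26, Bst1, Mmp13, Ccl5, Serpina3g, Neurl3 and Mgp. Their log2 differences lay between -2.97 and -2.59, and lack of overlap was again a condition of the choice.

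**Figure D2:**
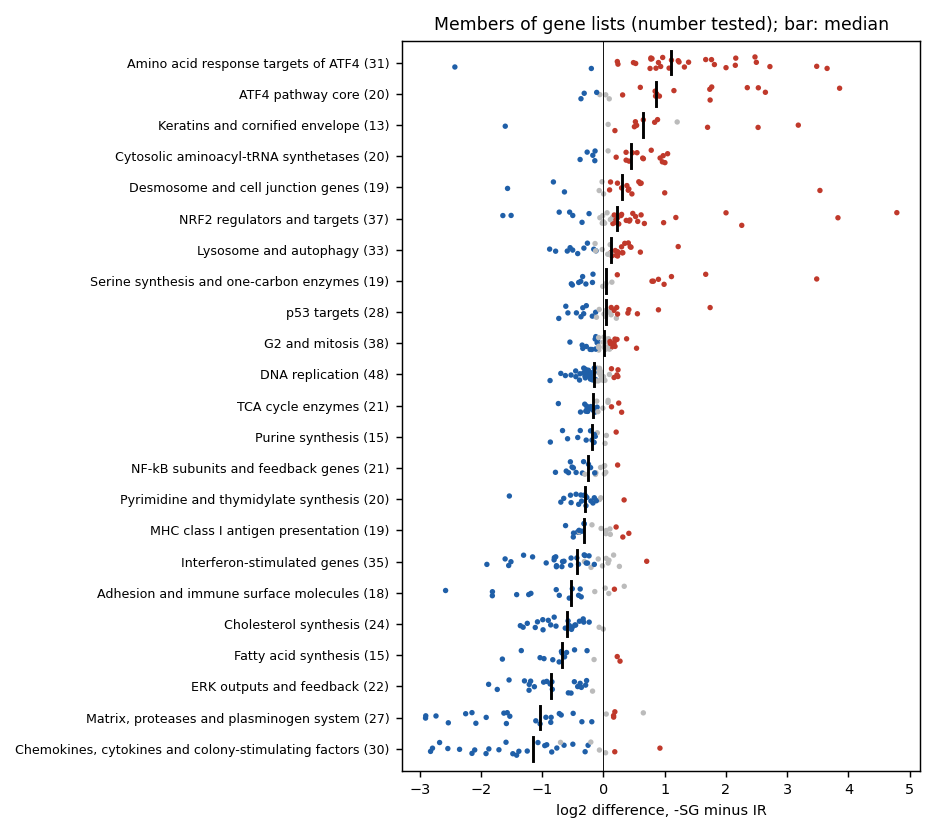
Log2 difference, -SG minus IR (x axis), of every tested member of 23 gene lists (rows, with the number tested). Red and blue points passed the test as higher in -SG or in IR, grey points did not, and black bars are medians, which run from 1.11 for amino acid response targets of ATF4 to -1.16 for chemokines and cytokines; the rows follow the order of the medians.

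The amino acid response had the highest median on the side of starvation among the 40 lists with at least 3 tested genes. Of 31 tested amino acid response targets of ATF4, 29 were higher in -SG and 2 in IR, with a median log2 difference of 1.11 (0.01 over all tested genes, of which 25.3% were higher in -SG). Against Ctr the same list rose in -SG for 28 and fell for 0 members (25.4% and 25.4% of all tested genes), while in IR 6 rose and 17 fell (24.3% and 22.1%). Both of these comparisons use the same Ctr libraries. The list went in opposite directions from Ctr: its median was 0.99 in -SG and -0.25 in IR. The 2 members higher in IR were Cbs, which joins serine to homocysteine, and Tiparp, a mono-ADP-ribosyl transferase, which did not pass without -SG replicate 6 (-0.10) or IR replicate 1 (-0.17).

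Sequence elements that C/EBP and ATF factors are known to bind (CARE, searched as TGATGNAA on both strands, N being any base) occur in promoters of several of these genes. In RefSeq promoter windows of 250 bases before to 50 after a start site (GRCm38.p6), the element was found for 7 of 25 target genes with a window (28%), 6 of 19 genes of the ATF4 pathway itself (31.6%) and 5 of 13 cytosolic aminoacyl-tRNA synthetases (38.5%), against 261 of 9758 tested genes (2.68%). A match is a description of letters only. Windows are shown for the 6 genes of these lists with the largest differences whose element lies wholly before the start site, 5′ to 3′ on the strand of the gene, with the element in capitals.
Fgf21, chr7:45615606-45615645, minus strand: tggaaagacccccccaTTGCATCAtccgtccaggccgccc
Vldlr, chr19:27216804-27216843, plus strand: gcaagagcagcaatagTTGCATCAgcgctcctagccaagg
Pycr1, chr11:120643828-120643867, minus strand: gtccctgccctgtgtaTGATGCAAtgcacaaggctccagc
Pck2, chr14:55540147-55540186, plus strand: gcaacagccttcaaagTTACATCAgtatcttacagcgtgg
Slc7a11, chr3:50443656-50443695, minus strand: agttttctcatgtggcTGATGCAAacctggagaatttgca
Chac1, chr2:119351033-119351072, plus strand: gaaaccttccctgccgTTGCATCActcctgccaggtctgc
In 4 of the 6 windows the element runs against the direction of the gene, and it begins between 200 and 66 bases before the start site.

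Atf4 and most genes of its pathway were higher in -SG as well, but the messages of the eIF2alpha kinases were not. Of 20 genes of the ATF4 pathway 14 were higher in -SG and 3 in IR (median 0.86). Atf4 itself had 7741, 7758 and 8611 normalized counts in -SG and 4380, 4533 and 4503 in IR (0.84 ± 0.04, adjusted p = 1.5e-11), with 6117 ± 158 in Ctr, so that it rose under starvation (0.39) and fell after radiation (-0.45). Atf5, a related factor that ATF4 is known to induce, had 4900, 4692 and 5386 in -SG and 766, 867 and 761 in IR (2.64 ± 0.06). Trib3, a pseudokinase that feeds back on ATF4, had 2117, 2140 and 2335 against 406, 432 and 453 (2.35 ± 0.06). Ddit3, which encodes CHOP, was higher in -SG by 1.15 ± 0.08, Atf3 by 0.85 ± 0.06 and Ppp1r15a, which reverses the phosphorylation of eIF2alpha, by 0.87 ± 0.08. Fgf21, a hormone of the fasting response, had 42.6, 32.5 and 37.4 in -SG and 0, 1.87 and 5.42 in IR (3.86 ± 0.52). The messages of the kinases were higher in IR or did not pass. Eif2ak4 (GCN2, -0.37 ± 0.04) and Eif2ak2 (PKR, -0.31 ± 0.06) were higher in IR. Eif2ak1 (0.04 ± 0.05) and Eif2ak3 (-0.06 ± 0.07) did not pass. After removal of the GC and length trends, however, Eif2ak1 was higher in -SG (0.13).

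Genes of amino acid transport and synthesis among the targets were higher in -SG. Asns, asparagine synthetase, had 10121, 10077 and 10630 normalized counts in -SG and 3019, 3027 and 3021 in IR (1.76 ± 0.03, adjusted p = 1.6e-16), with 4883 ± 128 in Ctr. Slc6a9, a glycine transporter, had 1869, 1846 and 1949.5 in -SG and 279, 284 and 295 in IR (2.72 ± 0.05), close to the 259 ± 9.61 of Ctr. Aldh1l2, the mitochondrial enzyme that oxidises formyl-tetrahydrofolate, had 382, 355 and 366 against 30.5, 31.9 and 33.6 (3.48 ± 0.10), and Pycr1, of proline synthesis, 728, 743 and 749 against 127, 123 and 149 (2.47 ± 0.08). In these 4 genes no -SG library overlapped an IR library, which held for 7023 of the 7504 genes that passed the test. For Slc6a9, Aldh1l2 and Pycr1 it was a condition of their choice as leading genes. The cystine importer Slc7a11 differed by 2.00 ± 0.10 and the neutral amino acid importer Slc7a5 by 1.39 ± 0.04. Cbs ran the other way, with 5.33, 8.33 and 9.62 in -SG and 54.6, 37.5 and 44.4 in IR (-2.43 ± 0.27, adjusted p = 7.3e-07), and its Ctr level, 6.96 ± 1.58, was that of starved cells.

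Within serine synthesis and one-carbon metabolism both sides held members. Of 19 tested genes 8 were higher in -SG and 8 in IR (42.1% each), with a median of 0.04. The shares of all tested genes were 25.3% and 26.2%. The serine pathway enzymes Psph (1.67 ± 0.04) and Psat1 (1.11 ± 0.03) and the mitochondrial folate enzymes Mthfd1l (0.99 ± 0.04) and Mthfd2 (0.90 ± 0.04) were higher in -SG. Phgdh, the first enzyme of serine synthesis, differed by only 0.23 ± 0.04. The cytosolic folate enzyme Shmt1 (-0.51 ± 0.05), the mitochondrial folate carrier Slc25a32 (-0.52 ± 0.07) and thymidylate synthase Tyms (-0.40 ± 0.04) were higher in IR.

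Of 20 cytosolic aminoacyl-tRNA synthetases 14 were higher in -SG and 5 in IR (median 0.45). The shares were 70% and 25%, against 25.3% and 26.2% of all tested genes. Aars, the alanyl synthetase, had 15994, 15804 and 16791 normalized counts in -SG and 8061, 8255 and 8389 in IR (0.98 ± 0.03, adjusted p = 1.7e-13), with 9372 ± 66.7 in Ctr. Lars (1.05 ± 0.03), Nars (1.00 ± 0.03), Sars (0.96 ± 0.04) and Cars (0.93 ± 0.04) were close to it. The valyl synthetase Vars had 10393, 10049 and 11335 in -SG and 13475, 14072 and 13791 in IR (-0.38 ± 0.04), and Kars, Farsa, Qars and Hars were also higher in IR, by 0.27 to 0.14 on the log2 scale. After removal of the GC and length trends Farsa (-0.08), Hars (-0.05) and Qars (-0.03) no longer passed. Against Ctr 12 synthetases rose and 5 fell in -SG, and 1 rose and 16 fell in IR.

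**Figure D3:**
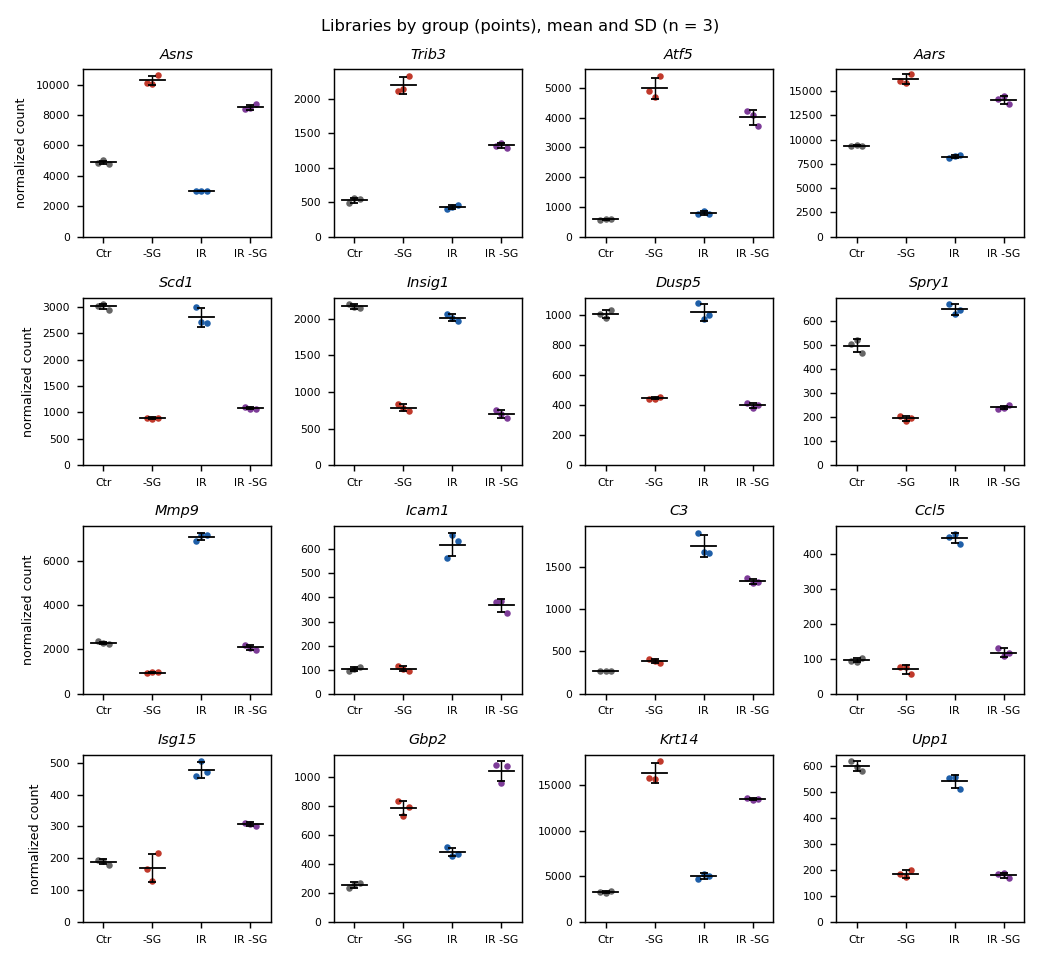
Normalized counts (y axes, each starting at 0) of 16 genes in the 12 libraries, by group (x axes: Ctr, -SG, IR and IR -SG); points are libraries, bars the mean and SD of 3. Asns, Trib3, Atf5, Aars and Krt14 are high in -SG, Scd1, Insig1, Dusp5 and Upp1 are low in -SG and near Ctr in IR, and Mmp9, Icam1, C3, Ccl5 and Isg15 are high in IR.

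Genes of lipid synthesis were lower in starved than in irradiated cells. Of 24 tested genes of cholesterol synthesis 22 were higher in IR and 0 in -SG, with a median of -0.60 (26.2% of all tested genes were higher in IR), and of 15 genes of fatty acid synthesis 12 were higher in IR and 2 in -SG (median -0.68). Insig1, which holds the SREBP proteins back in the endoplasmic reticulum and is itself their target, had 836, 784 and 742 normalized counts in -SG and 2065, 2009 and 1976 in IR (-1.36 ± 0.06, adjusted p = 1.9e-12), with 2174 ± 32.4 in Ctr. Scd1, stearoyl-CoA desaturase, had 896, 874 and 899 in -SG and 2996, 2711 and 2687 in IR (-1.65 ± 0.04), against 3007 ± 54.9 in Ctr. In both genes the IR libraries lay at or just under the Ctr level and the -SG libraries far below it. Acat2 (-1.31 ± 0.06), Tm7sf2 (-1.24 ± 0.10), Hsd17b7 (-1.11 ± 0.07) and Lss (-0.99 ± 0.05) of the sterol pathway, and Scd2 (-1.34 ± 0.04), Fads2 (-1.03 ± 0.05) and Elovl6 (-0.83 ± 0.04) of fatty acid desaturation and elongation, differed in the same direction. Elovl1 (0.27 ± 0.05) and Me1, malic enzyme (0.23 ± 0.04), were higher in -SG. Against Ctr, 23 cholesterol genes fell and 1 rose in -SG, and 13 fell and 4 rose in IR (medians -0.87 and -0.25). Of the fatty acid genes 12 fell and 1 rose in -SG, and 8 fell and 2 rose in IR. The sterol element (SRE, searched as TCACNCCAC) was found for 1 of 17 cholesterol genes with a window, against 1.33% of all tested genes.

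The 2 SREBP messages differed from each other. Srebf1, whose product drives fatty acid genes, had 2364, 2157 and 2379 normalized counts in -SG and 3390.5, 3527 and 3549 in IR (-0.60 ± 0.05, adjusted p = 1.2e-08). Srebf2, whose product drives cholesterol genes, had 4553, 4368 and 4606 in -SG and 4492, 4478 and 4580.2 in IR, which did not pass (adjusted p = 0.955), and it fell by 0.45 from Ctr in each. The libraries of both stresses overlapped for Srebf2 and not for Srebf1. After removal of the GC and length trends Srebf2 passed as higher in -SG (0.07).

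Outputs of the ERK kinases were lower in starved than in irradiated cells. Of 22 tested genes 21 were higher in IR and 0 in -SG, with a median of -0.86. These genes are early targets of growth factor signalling, and the Sprouty and dual-specificity phosphatase genes among them are its brakes. Spry1 had 204, 182 and 197 normalized counts in -SG and 670, 627 and 644 in IR (-1.73 ± 0.07, adjusted p = 7.6e-13), with 495 ± 26.4 in Ctr. Spry4 had 79.9, 88.3 and 98.3 against 309, 322 and 352 (-1.87 ± 0.10). The phosphatase Dusp5 had 442, 441 and 452 against 1078, 972 and 999.5 (-1.19 ± 0.05), where Ctr had 1006 ± 26.8. The ETS factors Etv4 (-1.21 ± 0.07) and Etv5 (-1.21 ± 0.06) and the early gene Ier3 (-1.29 ± 0.06) were also higher in IR, and Fosl1 did not pass (-0.18 ± 0.08, adjusted p = 0.062). From Ctr, 21 genes fell and 0 rose in -SG, with a median of -0.64, while in IR 3 fell and 6 rose, with a median of 0.03.

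Keratin and junction genes were mostly higher in starved than in irradiated cells. Of 13 tested keratin and cornified envelope genes 10 were higher in -SG and 1 in IR (median 0.65), and of 19 desmosome and junction genes 13 and 3 (median 0.30). Krt14, a basal keratin, had 15767, 15615 and 17589 normalized counts in -SG and 4678, 5294 and 5092 in IR (1.70 ± 0.05, adjusted p = 1.4e-14). Krt16, a keratin of stressed epidermis, had 1309.9, 1252 and 1535 against 228, 237 and 242 (2.53 ± 0.08), and Cdsn, corneodesmosin, 503, 518 and 562 against 59.9, 50.6 and 61.8 (3.18 ± 0.10). Dsg3, a desmosomal cadherin, had 164, 167 and 128 against 15.8, 14.99 and 7.59 (3.54 ± 0.34). For Krt14, Krt16 and Cdsn radiation alone also raised the level from Ctr, by 0.61, 1.35 and 0.76, less than starvation did by 2.31, 3.88 and 3.94. Tgm1, a transglutaminase of the envelope (-1.60 ± 0.35), and among the junction genes Cldn1 (-1.57 ± 0.37) and Cdh3 (-0.82 ± 0.15) were higher in IR. Of the 8 epithelial markers 7 were higher in -SG, by up to 0.88 for Krt19, and Krt18 did not pass (0.08 ± 0.04).

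Genes of glutathione and redox defence divided between the stresses. Of 37 tested regulators and targets of NRF2, the factor that answers oxidants, 22 were higher in -SG and 7 in IR (median 0.23). The shares were 59.5% and 18.9%, against 25.3% and 26.2% of all tested genes. Gsta4, a glutathione transferase of lipid aldehydes, had 883, 928 and 1091 normalized counts in -SG and 193, 200.5 and 208 in IR (2.26 ± 0.08, adjusted p = 1.4e-13). Gsta2 (4.79 ± 0.30) and Gsta1 (3.83 ± 0.35) belong to the same family, and reads can be shared between such close copies. Srxn1, sulfiredoxin, was higher in -SG by 1.18 ± 0.06, Nqo1 by 0.98 ± 0.07 and Gclm, of glutathione synthesis, by 0.67 ± 0.04. Osgin1 had 222, 262 and 278 in -SG and 775, 703 and 689 in IR (-1.51 ± 0.08), above its Ctr level of 339.5 ± 18.2 after radiation only. Akr1b8 (-0.55 ± 0.05) and Gstm2 (-0.50 ± 0.08) were also higher in IR. The antioxidant element (ARE, TGACNNNGC) was found for 12 of 32 of these genes with a window (37.5%), against 17.03% of all tested genes. Nfe2l2, which encodes NRF2, was higher in -SG by 0.30 ± 0.04 (adjusted p = 1.5e-05).

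Secreted immune mediators were on the side of radiation. Of 37 listed genes 7, among them Il1b and Il6, were too low to be tested. Of 30 tested chemokines, cytokines and colony-stimulating factors (with the receptor Il1rl1), 24 were higher in IR and 2 in -SG, with a median of -1.16. From Ctr, 24 rose and 3 fell in IR (median 1.12), and 8 rose and 11 fell in -SG (median -0.09). Ccl5, a chemokine for T cells, had 77.2, 74.9 and 55.6 normalized counts in -SG and 448, 454 and 427 in IR (-2.68 ± 0.12, adjusted p = 5.8e-12), with 95.9 ± 5.49 in Ctr. Ccl2, which draws monocytes, had 31.9, 30.8 and 26.7 against 159.7, 182 and 194 (-2.54 ± 0.15), and Cxcl10, an interferon-induced chemokine, 54.6, 39.1 and 37.4 against 192, 201 and 172 (-2.10 ± 0.14). All 3 genes lay below Ctr in -SG and above it in IR. Il1rl1, the receptor for interleukin 33, differed by -2.82 ± 0.25, Csf2 by -2.79 ± 0.50 and Spp1, osteopontin, by -2.15 ± 0.06. In IR -SG cells Ccl5 had 117 ± 12.3 and Ccl2 44.5 ± 7.85, far below IR. Vegfa, the angiogenic growth factor and a known target of ATF4, had 784, 729 and 783 in -SG and 418, 399 and 392.4 in IR (0.92 ± 0.05), and Mif was higher in -SG by 0.19 ± 0.06 (0.14 and not passed without IR replicate 1).

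NF-kB is a factor that drives many cytokine genes, and genes of its own pathway differed in part. Of 21 tested subunits and feedback genes 12 were higher in IR and 1, Traf2 (0.23 ± 0.06), in -SG, with a median of -0.24. The shares were 57.1% and 4.8%, against 26.2% and 25.3% of all tested genes. Nfkb1 (0.02 ± 0.04, adjusted p = 0.737) and Rela (-0.05 ± 0.04, adjusted p = 0.39) did not pass, Relb differed by -0.24 ± 0.07 (not passed without -SG replicate 5, -0.17) and Nfkb2 by -0.32 ± 0.04. The inhibitor Nfkbie had 840, 708 and 778 normalized counts in -SG and 1315, 1336 and 1345 in IR (-0.78 ± 0.05, adjusted p = 2.1e-09). Ripk2 (-0.61 ± 0.06), Tnfaip3, the ubiquitin editor A20 (-0.57 ± 0.04), Tnip1 (-0.54 ± 0.04) and Bcl3 (-0.51 ± 0.09) were next, and the inhibitor Nfkbia did not pass (0.00 ± 0.05).

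A short form of the NF-kB site (GGGNNTTTC, both strands) was found for 7 of 16 of these pathway genes with a window (43.8%) and for 6 of 20 cytokine genes (30%), against 496 of 9758 tested genes (5.08%). The windows of the 4 genes with the largest differences among these and the adhesion genes, with the site wholly before the start and in capitals, were as follows.
Ccl20, chr1:83116671-83116711, plus strand: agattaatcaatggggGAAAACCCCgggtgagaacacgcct
Siglecg, chr7:43408208-43408248, plus strand: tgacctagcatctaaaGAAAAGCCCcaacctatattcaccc
Tnfrsf9, chr4:150927940-150927980, plus strand: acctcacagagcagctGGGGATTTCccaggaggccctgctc
Cxcl3, chr5:90786012-90786052, plus strand: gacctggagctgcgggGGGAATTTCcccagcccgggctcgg
Ccl20, a chemokine for dendritic cells and lymphocytes, had 10.7, 7.49 and 12.8 normalized counts in -SG and 56.7, 33.7 and 35.8 in IR (-1.92 ± 0.37, adjusted p = 3.2e-04). Cxcl3, which draws neutrophils, had 21.3, 12.5 and 17.1 against 53.6, 51.5 and 65.0 (-1.71 ± 0.23), and Tnfrsf9, the costimulatory receptor 4-1BB, 19.97, 5.83 and 18.2 against 45.2, 43.1 and 57.5 (-1.81 ± 0.33). These are low counts, and the SE is correspondingly wide.

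Surface molecules and complement followed the cytokines. Of 18 adhesion and immune surface genes 13 were higher in IR and 1, Itgb4 (0.18 ± 0.04), in -SG (median -0.53). Icam1, which leukocyte integrins bind, had 114, 101 and 94.1 normalized counts in -SG and 566, 659 and 634 in IR (-2.58 ± 0.10, adjusted p = 6.1e-13). Its Ctr level of 103 ± 9.57 was that of starved cells. Cd40 (-1.42 ± 0.12), Vcam1 (-1.18 ± 0.04) and Cd44 (-0.77 ± 0.04) were also higher in IR, whereas the death receptor Fas did not pass (0.09 ± 0.09, adjusted p = 0.445), having risen from Ctr by 1.87 in -SG and 1.78 in IR. Of 20 listed complement genes only 7 were tested, of which 5 were higher in IR and 1, Cd46 (1.11 ± 0.32), in -SG. C3, the central component, had 406, 386 and 357 in -SG and 1903, 1681 and 1669.5 in IR (-2.19 ± 0.06). Clu, clusterin, had 3640, 3512 and 3917 against 11836, 12158 and 12108 (-1.71 ± 0.04). Masp1 differed by -1.69 ± 0.09, C1s1 by -2.41 ± 0.37 and Cfp by -0.44 ± 0.14, a call that was lost without -SG replicate 4, IR replicate 2 or IR replicate 3 (-0.40 to -0.39), and C1ra did not pass (-0.39 ± 0.37), except without IR replicate 3 (-0.85). C3 stayed high under both treatments, at 1333 ± 31.0, in contrast to Ccl5.

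Matrix proteases and matrix proteins ran in opposite directions from Ctr. Of 27 tested genes 22 were higher in IR and 3 in -SG, with a median of -1.03. From Ctr, 22 rose and 1 fell in IR (median 0.62), and 5 rose and 18 fell in -SG (median -0.57). Mmp9, gelatinase B, had 913, 955 and 982 normalized counts in -SG and 6924, 7204 and 7184 in IR (-2.90 ± 0.04, adjusted p = 1.2e-17), with 2291 ± 63.0 in Ctr and 2091 ± 118 in IR -SG cells. Plat, tissue plasminogen activator, had 75.9, 71.6 and 63.1 against 528, 562 and 503 (-2.90 ± 0.10). The collagenase Mmp13 differed by -2.73 ± 0.14 and the stromelysins Mmp3 by -2.53 ± 0.09 and Mmp10 by -2.25 ± 0.11. Has2, the hyaluronan synthase, had 666, 620.4 and 503 in -SG and 2317, 2104 and 2293 in IR (-1.91 ± 0.07), and here the IR libraries lay near the Ctr level of 1924 ± 54.2. Mmp14 (0.19 ± 0.04), Timp2 (0.17 ± 0.03) and Plaur (0.17 ± 0.04) were the members higher in -SG. Col1a1 was higher in IR (-1.63 ± 0.35), at 13.3, 14.2 and 12.8 in -SG and 36.8, 45.9 and 48.8 in IR. Col3a1, another fibroblast collagen, was not tested and had at most 5.33 in these 6 libraries, but 90.8 and 125 in Ctr replicates 1 and 3, so that levels of fibroblast genes in Ctr are uneven.

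Interferon-stimulated genes rose under both stresses, and most were higher after radiation. Of 41 listed genes 35 were tested. All 35 rose from Ctr in IR (median 1.05), and in -SG 23 rose and 3 fell (median 0.44). Between the stresses 25 were higher in IR and 1 in -SG, with a median of -0.43. Isg15, the ubiquitin-like modifier, had 166, 129 and 217 normalized counts in -SG and 457, 506 and 472 in IR (-1.51 ± 0.12, adjusted p = 1.9e-08), with 189 ± 8.30 in Ctr. Ifit1, which binds viral RNA, had 63.9, 63.3 and 57.7 against 199.6, 169.6 and 178 (-1.55 ± 0.12), and Rsad2, viperin, 25.3, 19.2 and 21.4 against 72.5, 96.5 and 85.6 (-1.90 ± 0.21). In these 3 genes the starved libraries lay around the Ctr level. The oligoadenylate synthetase-like gene Oasl1 differed by -1.30 ± 0.08. Gbp2, a guanylate-binding protein, was the exception: 833, 734 and 793 in -SG and 515, 458 and 473 in IR (0.71 ± 0.07, adjusted p = 2.4e-07), both above the 254 ± 18.9 of Ctr. The regulator Irf1 did not pass (-0.09 ± 0.04, adjusted p = 0.12), and Irf7 was higher in IR (-0.67 ± 0.23, adjusted p = 0.0202), a call that was lost without -SG replicate 4 (-0.58) or IR replicate 2 (-0.55).

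The interferon-stimulated response element (ISRE, searched as TTTCNNTTT on both strands) was found for 19 of 28 interferon-stimulated genes with a window (67.9%), against 914 of 9758 tested genes (9.37%). It shares TTTC with the NF-kB search, so that a stretch of letters can match both. Windows are shown for the 4 genes with the largest differences, as above.
Rsad2, chr12:26456548-26456588, minus strand: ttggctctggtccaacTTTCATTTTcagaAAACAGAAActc
Ifit1, chr19:34640769-34640809, plus strand: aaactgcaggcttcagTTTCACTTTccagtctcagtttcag
Isg15, chr4:156200871-156200911, minus strand: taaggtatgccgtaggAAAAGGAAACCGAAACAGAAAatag
Oasl1, chr5:114923047-114923087, plus strand: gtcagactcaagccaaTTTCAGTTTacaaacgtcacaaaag
In the Isg15 window overlapping matches form a single run of capitals.

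**Figure D4:**
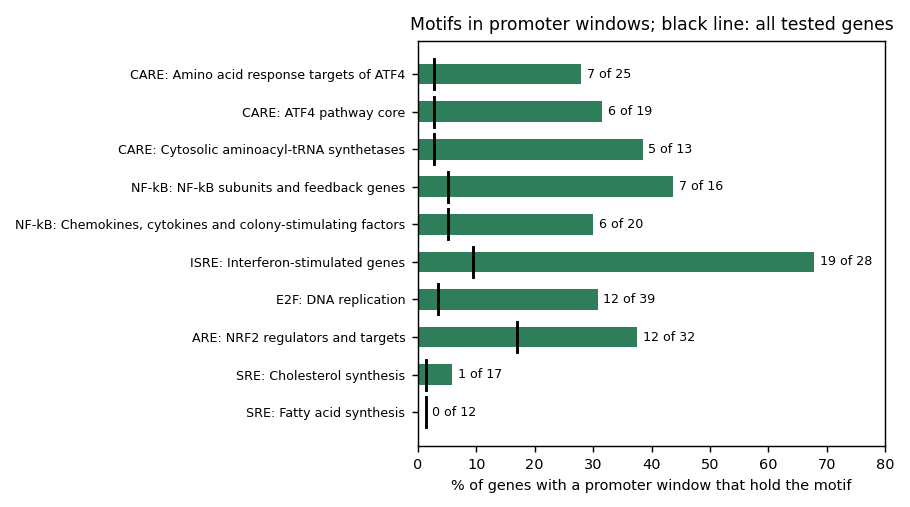
Share of genes with a promoter window that hold each motif (x axis, %), for 10 pairs of motif and gene list (rows); bars give the list, numbers the genes with the motif of those with a window, and black lines the share of all 9758 tested genes with a window. The bar for ISRE in interferon-stimulated genes reaches 67.9% against 9.37%, and the bar for SRE in cholesterol genes 5.88% against 1.33%.

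The sensors upstream of interferon were divided. Of 15 tested sensors of cytosolic nucleic acid and their adaptors 9 were higher in IR and 2 in -SG (median -0.15). The shares were 60% and 13.3%, against 26.2% and 25.3% of all tested genes. Ifih1 (MDA5), a sensor of double-stranded RNA, had 285, 273 and 223 normalized counts in -SG and 462, 422 and 475 in IR (-0.80 ± 0.09, adjusted p = 5.4e-07). Sting1, the adaptor of DNA sensing, had 409, 366 and 429 against 696, 701 and 684 (-0.79 ± 0.07), and Zbp1 46.6, 35.8 and 35.3 against 132, 105 and 126 (-1.61 ± 0.19). Cgas, the DNA sensor that feeds Sting1, did not pass (-0.04 ± 0.08) and fell from Ctr under either stress. The adaptor Mavs (0.24 ± 0.05) and the kinase Tbk1 (0.16 ± 0.05) were higher in -SG, the latter not without -SG replicate 4, -SG replicate 5 or IR replicate 3 (0.12 to 0.14). In the MHC class I pathway, which presents peptides to T cells, 9 of 19 tested genes (47.4%) were higher in IR. In -SG 3 (15.8%) were higher, and the median was -0.31. Its transactivator Nlrc5 (-0.62 ± 0.07), the immunoproteasome subunits Psmb9 (-0.49 ± 0.11) and Psmb10 (-0.49 ± 0.06) and H2-K1 (-0.40 ± 0.05) were higher in IR, and the peptide transporters Tap1 (0.41 ± 0.11) and Tap2 (0.21 ± 0.05) and H2-T23 (0.32 ± 0.10, not passed without -SG replicate 4 at 0.27) in -SG. Reads of the class I genes can be shared between copies.

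Notch and TGF-beta genes held members on both sides. Of 14 Notch pathway genes 4 were higher in -SG and 7 in IR (28.6% and 50%, against 25.3% and 26.2% of all tested genes). The ligand Dll4 had 55.9, 40.8 and 54.5 normalized counts in -SG and 369.7, 346 and 396 in IR (-2.86 ± 0.12, adjusted p = 3.5e-12), with 225 ± 20.2 in Ctr, and the ligand Jag1 differed by -0.78 ± 0.05 and the target Hes1 by -0.71 ± 0.07. Lfng (0.68 ± 0.07), Jag2 (0.38 ± 0.05) and the receptor Notch1 (0.37 ± 0.05) were higher in -SG. Of 17 TGF-beta, BMP and growth arrest genes 7 were higher in -SG and 5 in IR (41.2% and 29.4%), with a median of 0.03. The BMP targets Id3 (1.20 ± 0.06) and Id2 (1.05 ± 0.07), the stress gene Gadd45a (1.15 ± 0.08) and the cell cycle inhibitor Cdkn1b (0.84 ± 0.05) were higher in -SG, and the ligands Tgfb2 (-0.97 ± 0.13), Tgfb1 (-0.68 ± 0.07) and Tgfb3 (-0.51 ± 0.05) in IR.

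Of 28 tested p53 targets 9 were higher in -SG and 10 in IR (32.1% and 35.7%, near the 25.3% and 26.2% of all tested genes), with a median of 0.04. After removal of the GC and length trends the counts were 13 and 6. Cdkn1a, the cell cycle inhibitor p21, had 425, 387 and 440.4 normalized counts in -SG and 393, 384 and 369 in IR, which did not pass (0.13 ± 0.06, adjusted p = 0.104), except without -SG replicate 5 or after removal of those trends (0.18 in each). The death receptor Tnfrsf10b had 968, 930 and 918 against 1546, 1560 and 1563 (-0.73 ± 0.04), and Aen (-0.61 ± 0.05), Polk (-0.58 ± 0.08) and Plk2 (-0.44 ± 0.04) were also higher in IR. Sesn2 (1.74 ± 0.09), which is a target of ATF4 as well, Trp53inp1 (0.90 ± 0.19), Bbc3, or PUMA (0.55 ± 0.10), and Perp (0.42 ± 0.04) were higher in -SG. Trp53 itself did not pass (-0.06 ± 0.05, adjusted p = 0.312).

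Replication genes were lower in starved cells than in irradiated cells, by small amounts. Of 48 tested DNA replication genes 27 were higher in IR and 5 in -SG, with a median of -0.15. The shares were 56.25% and 10.4%, against 26.2% and 25.3% of all tested genes. From Ctr, 35 fell and 2 rose in -SG, and 16 fell and 5 rose in IR. Ccne1, cyclin E1, had 196, 202 and 251.2 normalized counts in -SG and 378, 432 and 374 in IR (-0.87 ± 0.09, adjusted p = 4.0e-07). Rrm2, the ribonucleotide reductase subunit, had 3363, 3360 and 3282 against 5262, 5496 and 5454 (-0.70 ± 0.03), the loading factor Cdc6 961, 926 and 933 against 1426, 1451 and 1461 (-0.62 ± 0.04), and E2f1 differed by -0.53 ± 0.05. E2F sites (TTTCCCGC or TTTGGCGC, both strands) were found for 12 of 39 replication genes with a window (30.8%), against 3.50% of all tested genes. Those of Cdc6 and of the helicase subunit Mcm6 (-0.30 ± 0.03) are shown with the site in capitals, as the largest differences with the site before the start.
Cdc6, chr11:98907997-98908036, plus strand: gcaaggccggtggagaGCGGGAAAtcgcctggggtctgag
Mcm6, chr1:128359792-128359831, minus strand: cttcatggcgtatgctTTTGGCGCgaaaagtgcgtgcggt
Of 38 genes of G2 and mitosis 12 were higher on each side (31.6%), near the share of all tested genes, and 20 in -SG and 6 in IR after removal of the GC and length trends, with Cdc25c (0.54 ± 0.05) and Cenpf (0.38 ± 0.06) higher in -SG and Ccnb2 (-0.55 ± 0.04) and Aurka (-0.35 ± 0.04) in IR. Of 29 genes of homologous recombination and the Fanconi pathway 8 were higher in -SG and 7 in IR (27.6% and 24.1%), shares near those of all tested genes. Fanci (0.50 ± 0.07), Xrcc3 (0.49 ± 0.07), Chek2 (0.42 ± 0.07) and Fancd2 (0.41 ± 0.06) were higher in -SG, and the damage kinase Atm (-0.43 ± 0.08) and Mre11a (-0.39 ± 0.04) in IR. The first of these counts was 5 without IR replicate 3.

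Genes of nucleotide synthesis and turnover were mostly lower in starved than in irradiated cells. Of 15 purine synthesis genes 11 were higher in IR and 1 in -SG (median -0.19), and of 20 genes of pyrimidine and thymidylate synthesis 17 and 1 (median -0.31). From Ctr, 12 purine genes fell in -SG and 11 in IR, and 19 pyrimidine genes fell in -SG and 9 in IR. Upp1, uridine phosphorylase, had 185, 172 and 202 normalized counts in -SG and 555, 557 and 512 in IR (-1.54 ± 0.07, adjusted p = 1.4e-11), with 599.6 ± 19.8 in Ctr. Gart, a trifunctional purine enzyme that uses glycine, had 3070, 3129 and 3279 against 4795, 5116 and 5154 (-0.67 ± 0.04), and Ctr had 5281 ± 25.3. Impdh1 (-0.59 ± 0.06), Dctd (-0.65 ± 0.04) and Dut (-0.54 ± 0.06) were also higher in IR, while Adsl (0.21 ± 0.05) and Ctps2 (0.34 ± 0.05) were higher in -SG. Thymidine kinase Tk1 was only slightly higher in IR (-0.15 ± 0.05, not passed without -SG replicate 4 or IR replicate 3, at -0.10 and -0.12) and fell from Ctr under both, by 0.76 in -SG and 0.62 in IR.

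Genes of central carbon metabolism lay on both sides, with most TCA cycle enzymes on that of IR. Of 21 TCA cycle enzymes 13 were higher in IR and 3 in -SG (61.9% and 14.3%, median -0.17). From Ctr 15 fell and 2 rose in -SG, and 6 fell and 1 rose in IR. Idh1, the cytosolic isocitrate dehydrogenase, had 1185, 1148 and 1161 normalized counts in -SG and 2011, 1932 and 1881 in IR (-0.74 ± 0.05, adjusted p = 7.3e-10). The mitochondrial Idh3a (-0.37 ± 0.03) and Idh2 (-0.31 ± 0.04) were higher in IR, and Dld (0.30 ± 0.05) and Idh3g (0.25 ± 0.04) in -SG. Of 20 glycolysis genes 9 were higher in -SG and 7 in IR (45% and 35%, against 25.3% and 26.2% of all tested genes). Aldoa (0.52 ± 0.04), Pfkl (0.48 ± 0.04) and Tpi1 (0.46 ± 0.04) were on the -SG side. Ldhb (-0.80 ± 0.11) and Pfkfb3 (-0.62 ± 0.07) were on the IR side. Without -SG replicate 6 the 9 became 5.

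Most lysosomal genes rose under both stresses, and between the stresses they divided. Of 33 lysosome and autophagy genes 16 were higher in -SG and 10 in IR, with a median of 0.12. Those shares were 48.5% and 30.3%, against 25.3% and 26.2% of all tested genes. From Ctr, however, 25 rose in -SG and 27 in IR. The autophagy receptor Sqstm1 (p62) had 22782, 22001 and 24884 normalized counts in -SG and 9758, 10145 and 9949 in IR (1.22 ± 0.04, adjusted p = 5.7e-14), and the protease gene Ctsd was higher in -SG by 0.60 ± 0.04. Ctsl, another cathepsin, had 11973, 12352 and 13141 against 23512, 23184 and 22161 (-0.88 ± 0.04). Of 18 mTORC1 brakes 9 were higher in -SG and 5 in IR (50% and 27.8%). Sesn2, a leucine sensor, and Ddit4 (REDD1) were each higher in -SG by 1.74, and Txnip by 0.76 ± 0.08, while Deptor had 723, 739 and 606 in -SG and 1440, 1421 and 1415 in IR (-1.05 ± 0.07) and the arginine sensor Castor1 was also higher in IR (-0.72 ± 0.09).

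Of 22 endoplasmic reticulum chaperone and unfolded protein response genes 11 were higher in IR and 2 in -SG (median -0.08). The shares were 50% and 9.1%, against 26.2% and 25.3% of all tested genes. After removal of the GC and length trends the counts were 7 and 6, with a median of 0.0075. Hspa5 (BiP), the main chaperone, did not pass (0.05 ± 0.03, adjusted p = 0.146), but was higher in -SG after removal of those trends (0.13) and with quantile normalization (0.13). Sdf2l1 had 217, 237 and 240.5 normalized counts in -SG and 454, 466 and 466 in IR (-0.99 ± 0.06), and Calr differed by -0.39 ± 0.03. Sel1l (0.57 ± 0.05) and Xbp1 (0.27 ± 0.04) were the members higher in -SG. Of 13 heat shock and cytosolic chaperone genes 7 were higher in -SG and 1 in IR (53.8% and 7.7%). Hspb1 had 253, 227 and 231 in -SG against 83.0, 105 and 118 in IR (1.22 ± 0.15). The member higher in IR was the mitochondrial chaperone Hspd1 (-0.49 ± 0.03).

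**Figure D5:**
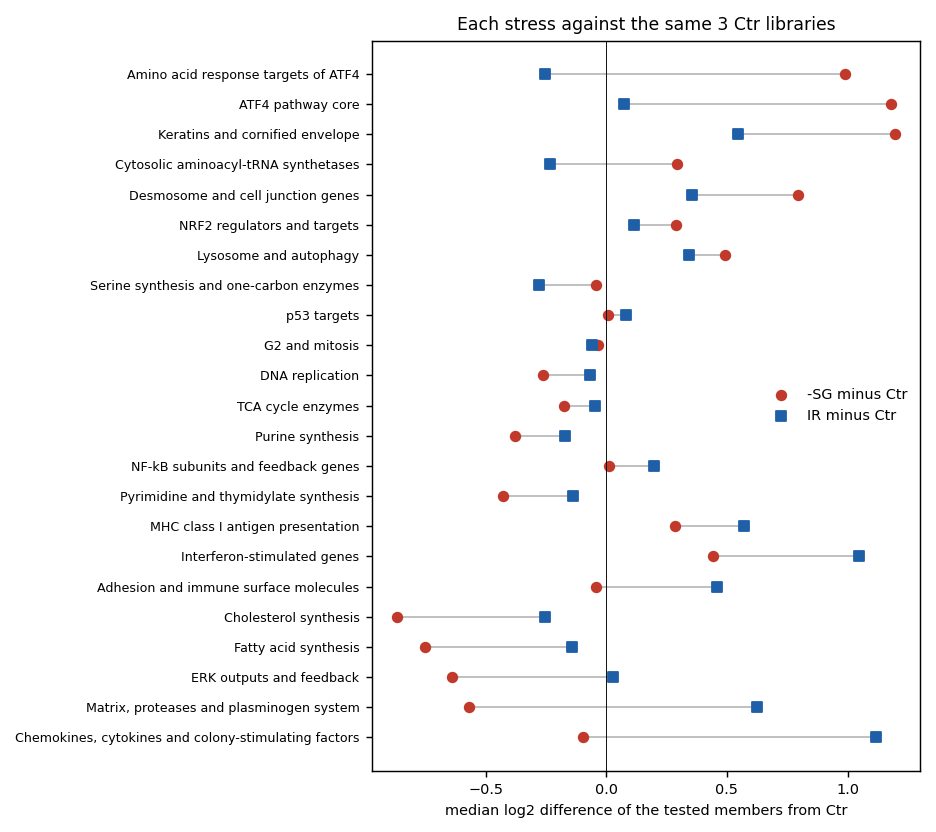
Median log2 difference from Ctr (x axis) of the tested members of 23 gene lists (rows), for -SG (red circles) and IR (blue squares); a grey line joins both stresses, which share the 3 Ctr libraries. ATF4 targets lie at 0.99 and -0.25, matrix and protease genes at -0.57 and 0.62, cholesterol genes at -0.87 and -0.25 and interferon-stimulated genes at 0.44 and 1.05.

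Set side by side with Ctr, the lists fell into several patterns, described by their medians only. ATF4 targets (0.99 in -SG, -0.25 in IR) and aminoacyl-tRNA synthetases (0.29 and -0.23) went up under starvation and down after radiation, and matrix and protease genes (-0.57 and 0.62) did the reverse. The sterol (-0.87 and -0.25), fatty acid (-0.75 and -0.14) and ERK (-0.64 and 0.03) lists went down mainly under starvation. The cytokine (-0.09 and 1.12), complement (-0.003 and 1.16) and adhesion (-0.04 and 0.46) lists went up after radiation only. Interferon-stimulated genes (0.44 and 1.05), MHC class I genes (0.28 and 0.57), keratins (1.20 and 0.55), junction genes (0.80 and 0.36) and lysosomal genes (0.49 and 0.34) went up under both, and differed between the stresses in size.

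Of the transcription factors followed whatever their values, Myc was higher in IR (-0.29 ± 0.04, adjusted p = 2.2e-05), with 4911, 5179.6 and 5440.2 normalized counts in -SG and 6109.9, 6545 and 6332 in IR. It is known to drive ribosome and nucleotide synthesis, and its Ctr level was 6155. The messages of Trp53, Srebf2, Nfkb1, Rela and Irf1 did not pass between the stresses, although for Srebf2 and Irf1 each stress had moved the level from Ctr in the same direction. An adjusted p above the threshold does not show that these levels are alike.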

How the data were processed

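RNA of 12 libraries of 4T1 cells was made into stranded total RNA libraries depleted of ribosomal RNA and sequenced in short pairs. Per the study's methods and notes, the authors checked reads with FastQC, aligned them to GRCm38 with HISAT2 and TopHat, counted them with featureCounts and scaled them with DESeq2 (R 3.3.1). For the other tools no version, and for the counting no strand setting, is stated in the sources read. The deposited values are a normalized count signal, gene counts divided by a size factor per library, and division by the step of 1 read gave whole reads for 100% of values within a tolerance of 0.001.

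Genes that reached 10 normalized counts in 3 or more libraries (14592 of 20587) were tested on log2(value + 1), where 1 is the pseudocount, with limma 3.58.1 (trend) in R 4.3.3, in a single fit of the 4 groups with Benjamini-Hochberg adjustment over all tested genes at 0.05. Residual degrees of freedom were 8. Fold changes are on that scale, which understates those of low genes, and positive values are higher in -SG. Recovered reads went into edgeR 4.0.16 and DESeq2 1.42.0 as alternatives. Symbols absent from the table (4381 genes) were taken from GENCODE M21, which held 20527 of the identifiers. Promoter sequences came from RefSeq (GRCm38.p6). Genes were named by rule: the 15 largest called differences each way without overlap and averaging 100 or more in the higher group, the 5 largest among non-coding genes, per list up to 5 called members averaging 30 or more and up to 2 against the list, and the transcription factors Atf4, Trp53, Nfe2l2, Srebf1, Srebf2, Nfkb1, Rela, Relb, Irf1, Irf7 and Myc, with 1 more that is not reported here. Named outside this rule, and chosen after their values were seen, were Asns, Ddit3, Atf3, Ppp1r15a, Eif2ak1, Eif2ak3, Slc7a5, Phgdh, Tyms, Farsa, Qars, Hars, Dusp5, Etv5, Fosl1, Lss, Tgm1, Krt18, Srxn1, Nqo1, Gclm, Akr1b8, Gstm2, Il1b, Il6, Csf2, Nfkb2, Nfkbia, Cd44, Fas, Cd46, C1s1, C1ra, Has2, Plaur, Col3a1, Ptprc, Cgas, H2-K1, Tap2, Notch1, Cdkn1b, Cdkn1a, Tgfb3, Plk2, Bbc3, Perp, Mre11a, Tk1 and Hspa5. The comparison, lists and tests were chosen with earlier results of these data known. The p-values measure the spread between cultures of 1 experiment. The fits were tested on simulated data.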

Additional observations from a re-analysis of the deposited data

How the results depend on the processing

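Between -SG and IR, 3688 genes were higher in -SG and 3816 in IR. edgeR on recovered reads gave 3653 and 3831, and DESeq2 gave 3232 and 3458. Leaving out each library in turn gave 3272 to 3875 and 3382 to 3943. A 2-fold minimum left 197 and 746, and against Ctr it left 597 genes that rose and 271 that fell in -SG, and 831 and 19 in IR. Removal of trends with GC content and length gave 5099 and 3358 between the stresses, and for IR against Ctr 2658 that rose and 5752 that fell, against 3543 and 3218. The median difference over all tested genes also moved, from 0.01 to 0.07 between the stresses. For IR against Ctr it went from -0.02 to -0.11. The cause was not tested. Srebf2 changed sign there, from -0.00 to 0.0739, and passed as higher in -SG.

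Of 299 genes examined singly, 282 passed the test, and 13 of these lost their call under a setting other than the 2-fold minimum: CYTB, Cfp, Farsa, H2-T23, Hars, Irf7, Malat1, Mif, Qars, Relb, Tbk1, Tiparp and Tk1. In 10 of them leaving out 1 library was enough. Besides Srebf2, a further 9 genes passed under some setting only. They included Irf1 (-0.12), Rela (-0.10) and Fosl1 (-0.25) without -SG replicate 6, and Nfkb1 (0.10) after removal of the GC and length trends. Of 29 list medians beyond 0.1 on the log2 scale 1 changed sign, that of mitochondrially encoded transcripts, 0.12 and -0.06 without -SG replicate 5. Over all 40 lists 9 changed sign, the other 8 having medians no larger than 0.08. Without -SG replicate 6 more ribosomal protein and respiratory chain genes were higher in IR, 19 in place of 9 cytosolic, 18 in place of 8 mitochondrial and 28 in place of 12 respiratory chain genes.

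The replicate numbers are the digits that end the library titles. The -SG and IR libraries share none of them, and no paired analysis was run between these groups. Ctr and IR share numbers, but deviations of same-numbered libraries correlated at only 0.05, 0.02 and 0.02, which gave no sign of pairing by number. A replicate block gave 3862 genes that rose and 3815 that fell, against 3858 and 3791 for the same 6 libraries without the block, a fit added after the data were seen.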

Other observations

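Among non-coding genes Neat1, the scaffold RNA of paraspeckles, had 9403, 9357 and 9342 normalized counts in -SG and 2407, 2242 and 2409 in IR (1.99 ± 0.05, SE, adjusted p = 8.2e-15 by limma), with 4406 ± 164 (SD, n = 3) in Ctr. It rose under starvation and fell after radiation. Norad, which sequesters Pumilio proteins, was also higher in -SG (0.72 ± 0.05). H19, an imprinted RNA, had 26.6, 19.2 and 24.6 in -SG and 117, 111 and 88.9 in IR (-2.12 ± 0.25), where starved libraries lay at the Ctr level of 26.8 ± 10.3. By the gene types of GENCODE M21, Zfp469 (-1.18 ± 0.06) and D5Ertd605e (-1.18 ± 0.09) counted as non-coding RNAs. Atp10d (-1.20 ± 0.08) counted as a polymorphic pseudogene, and each of these genes was higher in IR. So was Map2k3os (-1.23 ± 0.11), an antisense gene whose reads cannot be told apart from those of its partner where strand was not used. The pseudogenes Eif1-ps2, Eif1-ps1 and Trmt112-ps2 were higher in -SG, by 0.86 to 0.65, and can share reads with their parent genes.

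Of 10 tested histone genes 5 were higher in -SG and 3 in IR (50% and 30%, against 25.3% and 26.2% of all tested genes). The replacement histones H3f3b (0.33 ± 0.03) and H3f3a (0.29 ± 0.06) and the variants H2aj (0.66 ± 0.15) and H2ax (0.47 ± 0.08) were higher in -SG, and H2bc21 (-1.28 ± 0.21) and the linker histone H1f2 (-0.81 ± 0.13) in IR. Of 80 cytosolic ribosomal protein genes 30 were higher in -SG and 9 in IR (37.5% and 11.25%). From Ctr, however, 37 fell and 1 rose in -SG, and 61 fell and 0 rose in IR. Of 13 mitochondrially encoded transcripts 2, ND3 and CYTB, were higher in -SG (15.4%, under the 25.3% of all tested genes). None was higher in IR, and 10 rose from Ctr under each stress. Of all tested genes 25.4% rose and 25.4% fell from Ctr in -SG, and 24.3% and 22.1% in IR. The ribosomal protein and mitochondrially encoded groups moved by more than 1.5 times in their counts without -SG replicate 6.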
